A study of Mus musculus with 9 samples.

Results

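The regions described here were open in wild-type mesenchymal progenitor cells and in cells without ATRX, and were stronger in every knockout library than in any wild-type library. Peaks of all libraries on chromosomes 1 to 19 that overlapped or touched were merged into 132893 regions. Each region was given, in each library, a value from 0 to 100, the percentile of its strongest peak among all peaks of that library by fold enrichment (the ratio of the signal over the background), with 0 where no peak was called. Of these regions, 51035 held a peak in at least 1 wild-type library and in all 6 knockout libraries, and are called eligible regions below. Members were chosen on these same values as the eligible regions whose lowest knockout value exceeded the highest wild-type value by 10 percentile points or more, and 1077 of 51035 eligible regions (2.11%) were members. The strength of the members in knockout against wild type was therefore fixed by the choice and is given as a description, with no test. The mirrored rule, with the wild-type libraries on the high side, gave 1403 regions.

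The data were ATAC-seq peak lists, in which a transposase marks accessible chromatin, of C3H/10T1/2 cells, a mouse line that serves to model mesenchymal progenitor cells (MPCs). Wild-type (WT) cells and B10 and G7, both *Atrx* knockout (KO) clones, gave 3 libraries each, numbered R1 to R3, with no differentiation agent named in the labels. The knockouts were made with CRISPR-Cas9 and 2 guides, and a single clone was kept per guide, so a clone cannot be told apart from its guide. The WT cells were an isogenic control that had received an empty Cas9 vector. All WT libraries came from this single control line, so loss of ATRX cannot be told apart from traits of that line. Which guide made B10 or G7 is not stated in the labels, and neither is whether the replicates came from separate cultures, so spreads between libraries may be technical. The lists held between 74643 and 86650 peaks on these chromosomes, with the most in B10, and their sequencing depth is unknown here since they hold no read counts. Promoters of 14 of 15 mesenchymal markers, among them *Pdgfra*, *Prrx1*, *Twist1* and *Col1a1*, held a peak in all 9 libraries, and promoters of 0 of 6 blood markers did. The count was 2 of 6 for epithelial, 2 of 5 for endothelial and 2 of 5 for neural markers. Promoters of 2 blood, 3 epithelial, 2 endothelial, 3 neural and 0 mesenchymal markers had no peak in any library. The other blood promoters thus held a peak in at least 1 library.

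ATRX is a chromatin remodeller that, with its partner DAXX, deposits the histone variant H3.3 and helps to keep heterochromatin marked by H3K9me3 silent. MPCs can become fat, cartilage, bone or muscle cells, and the enhancers and promoters of the genes that direct these fates open as cells commit. Which transcription factors can occupy an open region depends in part on short sequence motifs near its centre, such as the AP-1 site of the FOS and JUN proteins, the TEAD site read by the partners of YAP and TAZ, and the sites of RUNX, SOX and CEBP factors, which act in bone, cartilage and fat.

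The sequences below are 201 bases around the summit of the strongest KO peak of 6 members, chosen because they lie at the largest differences and at promoters or introns of genes for fat and cartilage. They were read from the RefSeq assembly GRCm38.p6 (the mm10 build of the peak lists), plus strand, and capitals mark exact matches to the motifs searched. The windows are at chr2:121140523-121140723 (*Lcmt2* promoter), chr13:74457181-74457381 (an intron of the long noncoding gene E430024I08Rik, with *Zfp825* the nearest protein-coding start site), chr6:136532613-136532813 (*Atf7ip* promoter), chr6:115360985-115361185 (*Pparg* promoter), chr11:44685883-44686083 (*Ebf1* intron) and chr13:89540447-89540647 (*Hapln1* promoter).
Lcmt2 promoter: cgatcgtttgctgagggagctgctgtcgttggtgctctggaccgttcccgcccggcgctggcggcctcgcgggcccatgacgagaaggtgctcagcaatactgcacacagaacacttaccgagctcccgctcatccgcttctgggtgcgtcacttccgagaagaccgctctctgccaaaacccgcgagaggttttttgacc
E430024I08Rik intron: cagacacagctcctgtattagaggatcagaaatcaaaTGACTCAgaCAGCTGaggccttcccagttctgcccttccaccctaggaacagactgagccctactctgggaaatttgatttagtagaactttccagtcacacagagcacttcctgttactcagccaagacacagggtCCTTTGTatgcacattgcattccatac
Atf7ip promoter: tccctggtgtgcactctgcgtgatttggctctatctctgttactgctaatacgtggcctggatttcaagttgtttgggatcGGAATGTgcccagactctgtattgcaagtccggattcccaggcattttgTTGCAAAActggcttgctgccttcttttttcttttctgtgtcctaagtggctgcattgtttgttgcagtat
Pparg promoter: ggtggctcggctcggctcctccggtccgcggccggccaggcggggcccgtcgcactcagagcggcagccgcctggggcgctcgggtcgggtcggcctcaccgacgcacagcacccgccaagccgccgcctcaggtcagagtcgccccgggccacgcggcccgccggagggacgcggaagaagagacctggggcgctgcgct
Ebf1 intron: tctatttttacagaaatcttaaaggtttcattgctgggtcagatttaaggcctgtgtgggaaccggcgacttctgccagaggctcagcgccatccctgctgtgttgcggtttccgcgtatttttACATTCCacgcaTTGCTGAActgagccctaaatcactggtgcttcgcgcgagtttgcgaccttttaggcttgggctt
Hapln1 promoter: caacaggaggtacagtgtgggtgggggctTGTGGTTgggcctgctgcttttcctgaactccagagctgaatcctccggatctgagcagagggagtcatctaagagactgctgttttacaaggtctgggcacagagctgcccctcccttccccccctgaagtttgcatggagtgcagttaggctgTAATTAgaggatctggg
The intronic window near *Zfp825* held an AP-1 match (TGAGTCA, here on the minus strand), a SOX match (CCTTTGT) and an E-box of the kind read by myogenic factors (CAGCTG). The windows of *Atf7ip* and *Ebf1* each held a TEAD match (GGAATGT, on the minus strand in *Ebf1*) and a CEBP match (TTGCNNAA, where N is any base). The *Hapln1* window held a RUNX match (TGTGGTT) and a homeodomain match (TAATTA). The *Lcmt2* and *Pparg* windows held none of the 21 motifs searched and are printed without capitals. They were rich in CpG, with 19 and 30 CG dinucleotides and a GC content of 61.7% and 78.6%, against a median of 2 CG dinucleotides and 47.8% GC over all members.

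Members were weak or absent in WT and of middling strength in the knockouts. Their median percentile was 23.2, 19.03 and 15.7 in WT R1, R2 and R3, between 63.6 and 66.8 in the B10 libraries and between 59.0 and 63.8 in the G7 libraries. Over all eligible regions the medians lay between 63.6 and 68.6 in the 9 libraries. The medians of members lay far below these in the WT libraries and near them in the KO libraries. This too is a description, since the rule used these values and favours regions that are low in WT. The gap, which is the lowest KO value minus the highest WT value, had a median of 16.3 and ran from 10.0 to 87.7 percentile points. It was below 15 in 461 members, from 15 to 20 in 231, from 20 to 30 in 236, from 30 to 40 in 98, from 40 to 50 in 28 and above that in 23.

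**Figure D1:**
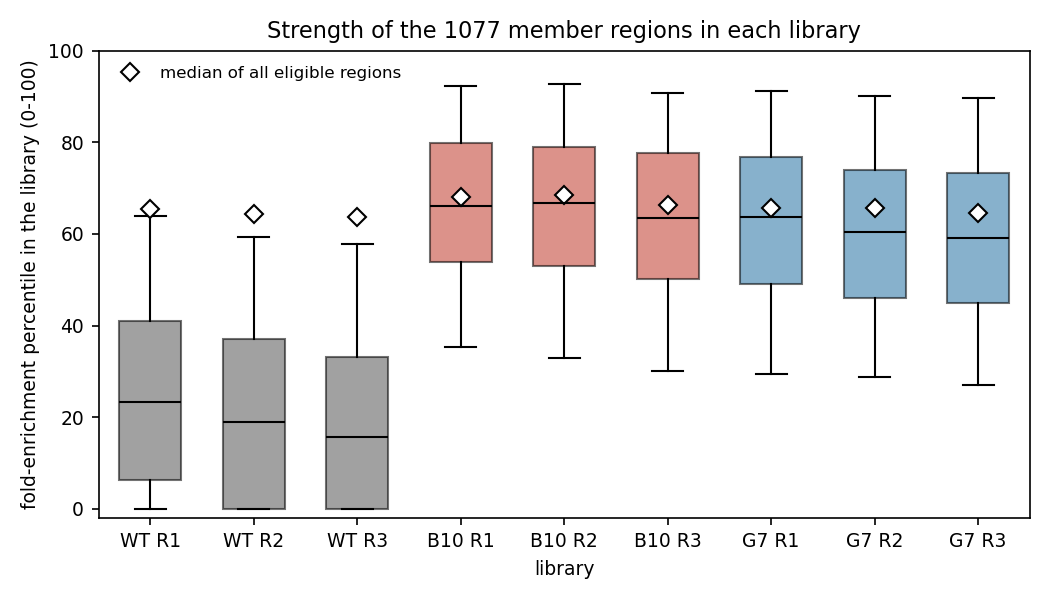
Percentile of the 1077 members (vertical axis, 0 to 100 within each library) in each of the 9 libraries, as boxes with the median and quartiles and whiskers from the 5th to the 95th percentile of members. Diamonds give the median of all 51035 eligible regions, which the KO boxes surround and which lies above the WT boxes.

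In 515 members (47.8%) a peak was called in all 3 WT libraries, in 254 members in 2 and in 308 members in only 1, while 91.0% of eligible regions held a peak in all 3. The single WT peak was in R1 in 181 of the 308 members, in R2 in 63 and in R3 in 64. WT R1 also gave the highest WT value in 557 members, against 293 for R2 and 227 for R3. Replicate 1 thus set the WT side of the rule most often. With R1 of every line left out the rule gave 3048 regions, which covered 895 of the 1077 members, and without WT R1 alone it gave 2427. Leaving out libraries loosens the rule, since the gap of a region that stays eligible cannot shrink, apart from changes in merging. The higher counts and the members kept are therefore no measure of robustness.

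In the 515 members with 9 peaks, the fold enrichment exceeded that of WT by a median of 0.82 on the log2 scale in B10 and 0.70 in G7, where all regions with 9 peaks had medians of 0.01 and -0.07. The peaks were wider, with a median ratio of KO to WT width of 1.47 in these members and 0.99 in all regions with 9 peaks. A stronger peak can be called wider, so width is not separate from the strength on which members were chosen. Width here is the summed width of the peaks of a region in a library. Over all members with a peak in the library, the median width was 350 to 366 bp in the WT libraries and 590 to 619 bp in the KO libraries. Over eligible regions it was 632 to 694 bp in all 9 libraries. The median distance between the median KO and the median WT summit was 16.5 bp in members with 9 peaks and 6 bp in all regions with 9 peaks. In bulk libraries, a region that is open in more of the cells and one that is more open in each cell cannot be told apart.

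The largest gaps were at single places scattered over the genome, and 3 of the first 4 were promoters. At the promoter of *Lcmt2*, which encodes a methyltransferase for a modified tRNA base (chr2:121140015-121141643), no peak was called in WT R1 and R2 and the value was 7.3 in R3. The values were 95.01, 99.0 and 98.1 in B10 and 96.0, 98.6 and 95.4 in G7. Its fold enrichment was 3.502 in WT R3 and 17.6 to 21.9 in the 6 KO libraries, so the region went from the bottom of the WT list to the top of the KO lists.

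The intronic region near *Zfp825* (chr13:74457018-74457621) had the same pattern, with no peak in WT R1 and R2, 7.3 in R3, 90.2, 94.98 and 88.3 in B10 and 96.3, 89.4 and 94.1 in G7. At the promoter of *Atf7ip*, whose product is a partner of the H3K9 methyltransferase SETDB1 (chr6:136532361-136533267), the values were 12.3, 5.0 and 0 in WT, 84.1, 83.5 and 86.3 in B10 and 88.5, 82.8 and 79.6 in G7. The promoter of *Epop*, which encodes a protein bound to Polycomb complexes, had 4.4, 0 and 16.3 in WT, 89.3, 84.6 and 84.5 in B10 and 86.4, 82.6 and 88.9 in G7. In these 4 regions the KO values lay at 79.6 or above and the WT values at 16.3 or below.

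The other 6 of the 10 largest gaps were between 59.6 and 64.5. They lay in intergenic sequence nearest to *Zc3h15* (chr2:83682103-83682682), *Vcpkmt* (chr12:69556073-69556975), *Slc16a7*, a monocarboxylate transporter gene (chr10:125108571-125109576), and *Hey2*, which encodes a repressor in the Notch pathway (chr10:30979887-30980844), over an exon of *Rab33b*, a gene of Golgi vesicle traffic (chr3:51493228-51493826), and at a processed pseudogene for which *Cetn1* was the nearest protein-coding gene. WT values in these 6 regions reached at most 21.9, and the lowest KO value was 68.6, at *Rab33b*. The windows near *Vcpkmt* and *Slc16a7* held an AP-1 match and the one near *Rab33b* a TEAD match. Among members within 1 kb of a protein-coding start site, the 6 largest gaps were those of *Lcmt2*, *Atf7ip* and *Epop*, then *Nim1k*, a protein kinase gene, with a gap of 58.1, *Pparg* with 57.7 and *Tuba4a*, an alpha-tubulin gene, with 54.6.

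**Figure D2:**
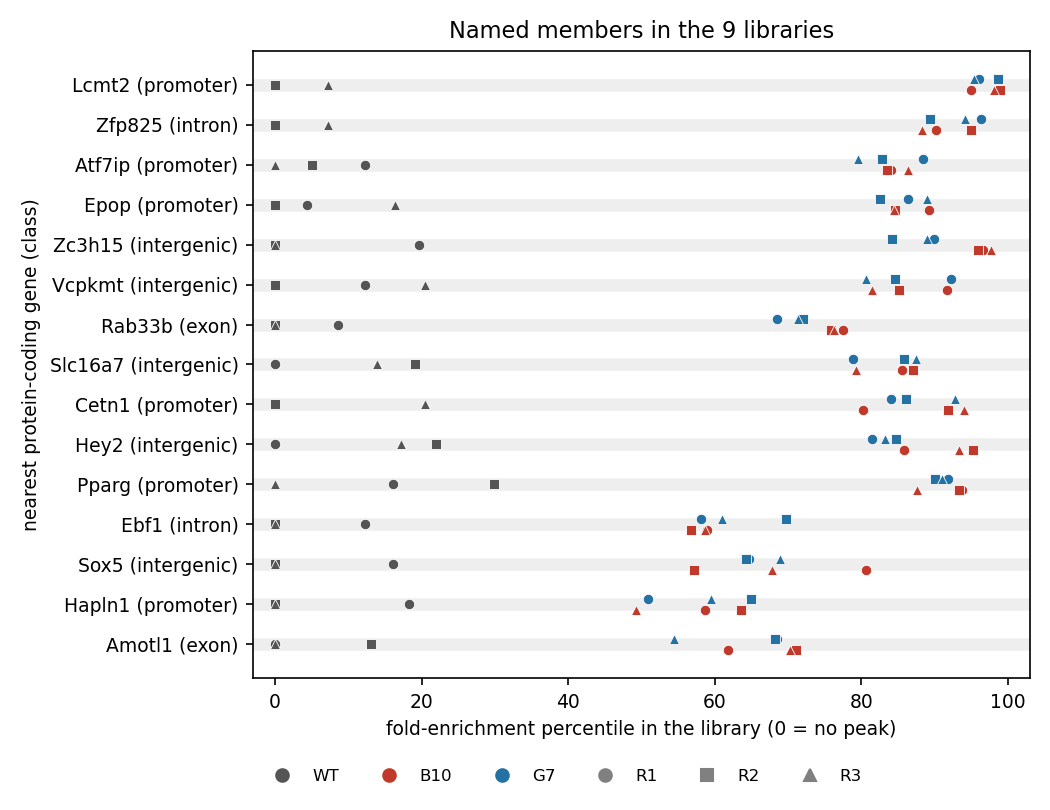
Percentile in each of the 9 libraries (horizontal axis, 0 where no peak was called) for the 10 members with the largest gaps and for members at 5 genes of the fat, cartilage and Hippo lists, with the library line as colour and the replicate as marker shape. WT values reach at most 29.9 in these 15 regions, and the lowest KO value, 49.2, is at *Hapln1*.

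At the threshold, the 3 members just inside and the 3 eligible regions just outside all had gaps that round to 10.0. Inside were an intron near *Itpr3* (lowest KO value 16.5, highest WT value 6.5), an intron near *Sorbs2* (20.3 and 10.3) and an intron near *Lrrc36* (46.2 and 36.1). Outside were a promoter of an antisense gene at *Nid1* (39.7 and 29.7), an intron near *Phf14* (45.7 and 35.7) and the promoter of *Atg9b* (29.7 and 19.7). A gap of at least 5 would have given 1993 regions and a gap of at least 20 gave 385.

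Position in the genome was not used to choose the members. Within 3 kb of a transcription start site lay 254 of 1077 members (23.6%, 95% Wilson interval 21.1 to 26.2), and 38.8% of eligible regions. Introns held 425 members (39.5%) against 28.3% of eligible regions, intergenic sequence 332 (30.8%) against 27.9%, and exons 66 (6.13%) against 4.96%. Only 92 members (8.54%) lay over the start site of a protein-coding gene, against 21.6% of eligible regions, and 196 (18.2%) lay more than 100 kb from one, against 10.4%. The members were thus found away from promoters more often than eligible regions. This was not particular to them, as the regions of the mirrored rule had 28.7% at promoters, 8.62% over a protein-coding start site and a median distance of 20.4 kb to one. These intervals cover counting error only, since regions are not independent replicates. With replicate 1 of every line left out, 23.7% of the regions past the rule were at promoters, against 37.8% of the eligible regions.

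The median distance to a protein-coding start site was 19.8 kb for members and 10.8 kb for eligible regions, and the median GC content at the summit was 47.8% and 51.2%. More than 50% of the window was repeat sequence in 52 members (4.83%) and in 2.82% of eligible regions. The median share of repeat sequence in the window was 2.49% in members, 0% in eligible regions and 4.98% in regions of the mirrored rule.

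Members were found on each of the 19 chromosomes, from 1.28% of eligible regions on chromosome 5 to 3.39% on chromosome 6 (102 members) and 3.16% on chromosome 13 (76 members). Chromosomes 6 and 13 also had the highest median difference of B10 from WT over regions with 9 peaks, 2.89 and 2.82 percentile points, where G7 had 0.73 and 0.68. With values centred within each library and chromosome, an alternative added after the data were seen, the rule gave 905 regions and covered 868 of the 1077 members. The median KO minus WT difference of other eligible regions within 100 kb had a median of 2.29 percentile points over members and 1.66 over eligible regions. The part of such wider differences in the choice of members was not tested. Another member lay within 50 kb of 138 members (12.8%), and a member lay within 50 kb of 8.39% of the other eligible regions.

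The members were spread over 936 nearest protein-coding genes, of which 118 had at least 2 members and 19 at least 3. The window of 1 Mb with the most members was on chromosome 13 from 35000001 to 36000000, with 7 members of 24 eligible regions, near *Cdyl*, *Eci2* and *Rpp40*. *Cdyl* encodes a chromodomain corepressor, and its promoter (chr13:35740910-35742649) had values of 16.04, 41.4 and 32.1 in WT, 93.4, 93.9 and 86.4 in B10 and 93.9, 86.1 and 89.0 in G7. All 6 KO values of this promoter were above the WT values by 44.7 points or more. A window on chromosome 8 from 45000001 to 46000000 held 6 members of 41 eligible regions, near *Fat1*, an atypical cadherin gene, and *Sorbs2*, and a window on chromosome 18 from 33000001 to 34000000 held 5 of 21, near *Nrep*, *Stard4* and *Epb41l4a*.

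Genes of fat formation were represented by 5 members of 175 eligible regions (2.86%), close to the 2.11% of all eligible regions. Nearest genes say only which start site is closest. The 5 members were nearest to *Pparg* (2), the master regulator of fat cell formation, *Ebf1* (2), an early B-cell and adipocyte factor, and *Ppargc1a* (1), a coactivator of mitochondrial genes. The *Pparg* promoter region (chr6:115360782-115361892) had values of 16.04, 29.9 and 0 in WT, 93.8, 93.3 and 87.6 in B10 and 91.8, 90.0 and 91.0 in G7. Its fold enrichment was 4.23 and 5.82 in WT R1 and R2, with no peak in R3, and 15.4 to 18.04 in the KO libraries, so it ranged among the strongest peaks of both clones. The *Ebf1* intron printed above (chr11:44685505-44686451) held a WT peak only in R1, at 12.3, with 58.9, 56.7 and 58.7 in B10 and 58.2, 69.7 and 60.9 in G7. The second *Ebf1* member (chr11:44924798-44925539) was less even in WT, with 43.6, 0 and 13.8 against 71.6 or more in the KO libraries. The *Ppargc1a* member (chr5:51573516-51574210) was open in all WT libraries, at 50.5 to 53.2, and lay at 69.5 to 80.3 in the knockouts.

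Cartilage genes had 14 members of 268 eligible regions (5.22%), at 8 of 30 genes, while the mirrored rule had 9 regions at this list. A SOX gene was the nearest gene of 7 of the 14 members. These were *Sox5* (2), *Sox6* (3) and *Sox9* (2), the trio of factors that drives cartilage formation. The list of 18 SOX genes had no other member among its 173 eligible regions. The *Sox5* member with the largest gap, 255.7 kb from the start site (chr6:143690328-143691403), had values of 16.04, 0 and 0 in WT, 80.7, 57.1 and 67.9 in B10 and 64.7, 64.3 and 68.9 in G7. The *Sox6* member with the largest gap, 226.2 kb from the start site (chr7:115371090-115371732), had 38.9, 0 and 18.8 in WT and 72.9 to 83.2 in the knockouts.

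At the promoter of *Hapln1*, which encodes the link protein of cartilage matrix (chr13:89539494-89541123), only WT R1 had a peak, at 18.2, while B10 had 58.6, 63.6 and 49.2 and G7 50.9, 65.0 and 59.5. The *Trps1* member, 429.6 kb from the start site of this repressor of cartilage maturation (chr15:51320048-51320996), had 34.5, 20.5 and 8.1 in WT and 70.4 to 89.3 in the knockouts. The other genes of the list with a member were *Cnmd* (2), *Col11a1* and *Col9a1*, and *Hapln1* had 2 members in all. The *Sox9* member with the larger gap (chr11:112023217-112024315), 757.9 kb from the start site, was already strong in WT, at 45.7 to 66.5, and lay at 79.5 to 85.4 in the knockouts.

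Bone genes had 2 members of 120 eligible regions (1.67%) and muscle genes 4 of 89 (4.49%). The bone members were nearest to *Dlx3* (gap 17.0) and *Tnfsf11* (gap 13.4), the gene of the osteoclast ligand RANKL. Among the muscle members were those nearest to *Pax3* (gap 19.5), *Myod1* (gap 19.4) and *Tnnt3* (gap 16.6), of which *Pax3* and *Myod1* encode factors that set muscle identity and *Tnnt3* a troponin. These counts are small, and the *Tnfsf11* and *Myod1* members also differed between the clones, as given below.

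Hippo pathway genes had 6 members of 183 eligible regions (3.28%), 1 each at *Amotl1*, *Tead1*, *Ptpn14*, *Vgll3*, *Ccn2* and *Ankrd1*. *Tead1* encodes a factor of the TEAD family, *Amotl1* and *Ptpn14* encode proteins that hold back YAP, *Vgll3* a cofactor of TEAD, and *Ccn2* and *Ankrd1* are genes that YAP activates. The *Amotl1* exon (chr9:14544078-14545154) had 0, 13.1 and 0 in WT, 61.9, 71.1 and 70.3 in B10 and 68.5, 68.3 and 54.5 in G7. The *Tead1* intron (chr7:112684799-112685657) had a WT peak only in R1, at 7.3, with 33.0 to 54.1 in the knockouts, and the *Vgll3* promoter (chr16:65827979-65828646) moved from 35.5 to 42.5 in WT to 56.1 to 59.8 in the knockouts.

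TGF-beta and BMP genes had 6 members of 337 eligible regions (1.78%), at *Tgfb2* (2) and *Tgfb3* (2), which encode ligands, *Bambi*, a decoy receptor gene, and *Smad6*, an inhibitor gene. Wnt genes had 6 of 264 (2.27%), at *Ror1* (2), which encodes a receptor, *Lrp5*, a coreceptor gene, *Lgr4*, a receptor gene for R-spondin, and the inhibitor genes *Dkk2* and *Wif1*. Matrix genes had 7 of 425 (1.65%), at *Col5a2* (2), *Lama4* (2), *Lama2*, *Col14a1* and *Fbln1*. The largest gaps of these lists were 37.4 at *Bambi*, 32.5 at *Dkk2* and 24.6 at *Lama2*. The *Dkk2* promoter (chr3:132087017-132087495) had 3.5, 19.9 and 1.9 in WT, 69.2, 79.4 and 72.0 in B10 and 53.1, 55.5 and 52.4 in G7.

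Genes of AP-1 proteins had 1 member of 79 eligible regions (1.27%), 10.7 kb from *Fos*, with 24.3 to 31.0 in WT and 43.9 to 70.6 in the knockouts. Imprinted genes had 3 of 45 (6.67%), at the promoters of *Gnas*, which encodes a G protein subunit, *Grb10*, an adaptor of the insulin receptor, and *Phlda2*, a gene that limits placental growth. The *Gnas* member (chr2:174327130-174328027) had 17.9, 12.5 and 9.3 in WT and 37.0 to 48.6 in the knockouts, so it was among the weaker members. The 11 lists differ in length and share genes, and their shares are descriptions beside the background of 2.11%, with no test of any list. The mirrored rule, weaker in both clones, also had regions at each list. It had 9 at cartilage, 8 at Wnt, 8 at matrix, 3 at fat, 3 at bone and 3 at SOX genes. Muscle, Hippo and TGF-beta and BMP genes had 2 each, and AP-1 and imprinted genes 1 each.

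Sequence was not used to choose the members either. The AP-1 motif (TGAGTCA) was found within 100 bp of the summit in 93 of 1077 members (8.64%) and in 8906 of 51035 eligible regions (17.5%). Outside promoters the shares were 79 of 823 members (9.60%, interval 7.77 to 11.8) and 21.8% of eligible regions (21.4 to 22.3), and at promoters 14 of 254 (5.51%) and 10.5%. The AP-1 share of members was thus below that of eligible regions in both classes. With replicate 1 of every line left out, it was 10.1% against 19.7%, and over the 9 fits that each left out 1 library it ran from 7.005% without WT R1 to 10.96% without WT R2.

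For TEAD (GGAATGT) the order was the other way round. It was found in 109 members (10.1%) and 5.53% of eligible regions, with 10.7% (8.76 to 13.0) and 6.67% (6.40 to 6.95) outside promoters and 8.27% and 3.74% at promoters. The RUNX motif (TGTGGTT) was found in 13.0% of members outside promoters (10.9 to 15.5) and 10.4% of such eligible regions (10.1 to 10.8), the CEBP motif (TTGCNNAA) in 13.0% (10.9 to 15.5) and 9.93% (9.61 to 10.3), and the SOX motif (CCTTTGT) in 8.14% (6.46 to 10.2) and 5.91% (5.66 to 6.18). These 3 motifs, like TEAD, had intervals of members above those of eligible regions. So did the SP/KLF motif (GGGGCGGGG) outside promoters, with 12 members (1.46%, 0.836 to 2.53) and 0.723% of eligible regions (0.635 to 0.824). At promoters its order was reversed, with 5.51% of members and 9.73% of eligible regions.

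The core of the CTCF site (AGGGGGC) was less frequent, with 3.52% of members outside promoters (2.46 to 5.01) and 5.67% of eligible regions (5.42 to 5.94), and so was the myogenic E-box (CAGCTG), with 12.03% (9.98 to 14.4) and 15.6% (15.2 to 16.03). The E-box of the kind bound by TWIST proteins (CATCTG) was found in 16.6% and 17.1%. A run of 8 adenines (AAAAAAAA) was found in 6.44% of members outside promoters (4.96 to 8.33) and 5.003% of eligible regions (4.77 to 5.25), so these intervals overlapped. The direct repeat bound by PPAR and RXR was found in 0 of 1077 members, where the limit of 3 counts allows a share of up to 0.279%, and in 11 eligible regions, too few to be compared. A match is a description of letters, not of a bound factor, and no test was run on these shares.

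**Figure D3:**
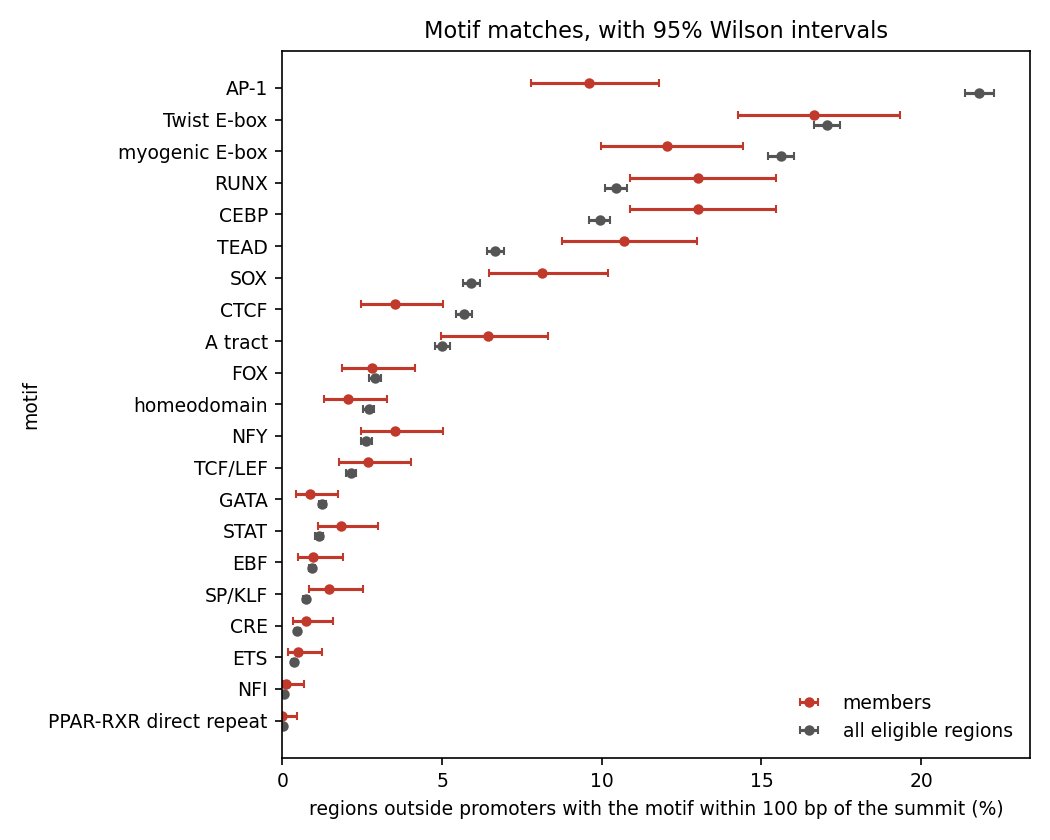
Share of regions outside promoters (horizontal axis, percent) with an exact match within 100 bp of the summit for each of 21 motifs, for 823 members and 31243 eligible regions, with 95% Wilson intervals. AP-1 has the widest distance, 9.60% against 21.8%, and TEAD, RUNX, CEBP, SOX and SP/KLF lie higher in members with intervals that do not overlap.

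To set members beside regions of similar strength in the knockouts, the shares were also taken over regions with a median KO percentile from 50.04 to 75.9, the quartiles of the members. Outside promoters, AP-1 was found in 40 of 424 such members (9.43%) and in 21.1% of 12245 such eligible regions, and TEAD in 10.6% and 6.65%. For RUNX the shares were 14.4% and 10.2%, for SOX 7.08% and 6.04% and for CEBP 11.1% and 9.87%. AP-1, TEAD and RUNX thus kept their distance at like strength, while the shares of SOX and CEBP came closer.

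Along the gap itself, the AP-1 share of eligible regions outside promoters was 24.4% where the gap was below -10, 19.2% from -10 to 0, 12.8% from 0 to 10, 10.5% from 10 to 20 and 7.93% at 20 or more (interval 5.34 to 11.6, 290 members). The TEAD share was 6.46%, 6.41%, 8.13%, 9.38% and 13.1% (9.70 to 17.5) in the same bins. The 2 shares moved in opposite directions across the threshold of the rule, with no step at it. For RUNX the share was 10.0% in the lowest bin and 16.2% in the highest, and for CEBP it was 15.01% from 10 to 20 and 9.31% at 20 or more, with no steady order.

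**Figure D4:**
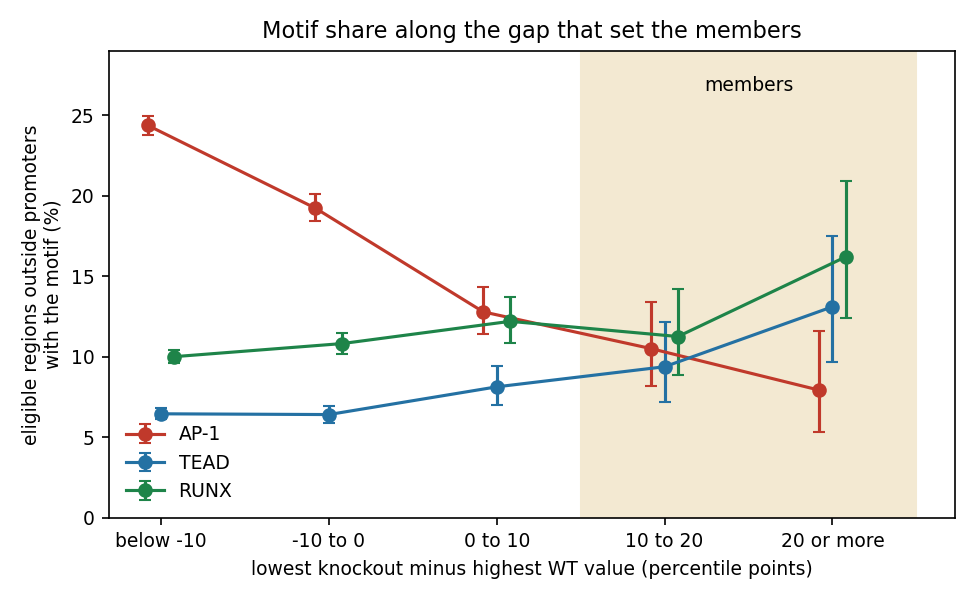
Share of eligible regions outside promoters with an AP-1, TEAD or RUNX match (vertical axis, percent, with 95% Wilson intervals) in 5 bins of the gap (horizontal axis, percentile points), with the bins of the members shaded. AP-1 goes from 24.4% to 7.93% and TEAD from 6.46% to 13.1%.

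The rule did not compare B10 with G7, and this contrast asks whether members were equally strong in the 2 clones. The rule did act on the lowest value over both clones, so a region that was weak in either clone could not be a member. How often members differed between the clones was therefore constrained by the choice. Its comparison with eligible regions is a description, not an independent test. The contrast was fitted on log2 fold enrichment with limma over all 51035 eligible regions, each library centred on its median, with Benjamini-Hochberg adjusted p-values. Of 1077 members, 16 (1.49%) differed at an adjusted p under 0.05, against 572 of all eligible regions (1.12%). B10 was higher in 12 of them (1.11% of members), against 0.537% of eligible regions, and G7 in 4 (0.371%), against 0.584%. At this threshold the share of members that differed was close to the background. An unadjusted limma p under 0.05 was more frequent in members, 238 of 1077, than in eligible regions, 7238 of 51035 (14.2%). The median difference, B10 minus G7, was 0.05 in members and 0.01 over all eligible regions.

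Same-numbered libraries of the clones deviated together, most clearly R1, while R2 and R3 also correlated with each other across the clones. With the replicate number as a block limma called 56 members (5.2%), against 3.66% of eligible regions, among them all of the 16. The calls depended on single libraries, as limma called 29 members (2.69%) without G7 R1, against 1.75% of eligible regions, and 1 without G7 R2, against 0.0588%. It called 0 members without B10 R1, B10 R2, B10 R3 or G7 R3, where it called 0.235%, 0.00196%, 0.0314% and 0% of eligible regions. In these 4 fits 180 to 206 of the 1077 members had an unadjusted limma p under 0.05. In each of them this was a larger share than in eligible regions, where it was 10.0% to 13.0%. Without centring, B10 was higher in 20 of 21 called members and in 456 of 634 called eligible regions, and on the percentile scale in 10 of 11 and in 231 of 372, so the split between the clones moved with the scaling in members and in the background.

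The largest difference was in an intron of *F13a1*, the gene of a subunit of coagulation factor XIII (chr13:36976882-36977556). Its fold enrichment was 18.3, 18.9 and 16.7 in B10 and 6.68, 9.34 and 7.88 in G7, and the only WT peak, in R2, had 5.53. The clones did not overlap, and the log2 difference was 1.11 with an SE of 0.14 (limma, adjusted p = 0.0209). Members named here were picked as the largest called differences, so a lack of overlap between the clones adds little to the call. The intergenic member 573.1 kb from *Fam98a* (chr17:76125049-76125808) had 12.6, 15.9 and 14.4 in B10 and 5.52, 7.83 and 5.99 in G7, a log2 difference of 1.08 with an SE of 0.16 (limma, adjusted p = 0.0313). The *Tnfsf11* member (chr14:78347621-78348266) had 13.2, 11.7 and 10.9 in B10 and 6.39, 5.72 and 4.41 in G7, a log2 difference of 1.05 with an SE of 0.17 (limma, adjusted p = 0.0394). The clones did not overlap at this region near the RANKL gene.

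G7 was higher at an intergenic member 127.2 kb from *Prok2*, the gene of a secreted signal of the prokineticin family (chr6:99853638-99854016). Its fold enrichment was 11.9, 13.9 and 14.5 in G7 and 7.79, 6.46 and 9.07 in B10, and the log2 difference, B10 minus G7, was -0.88 with an SE of 0.16 (limma, adjusted p = 0.0499). At the promoter of *Ehd3*, which encodes a protein of endosome traffic (chr17:73804434-73805266), G7 had 16.9, 17.5 and 18.4 and B10 12.3, 12.7 and 13.4, a log2 difference of -0.54 with an SE of 0.07 (limma, adjusted p = 0.0237). The clones did not overlap at either place.

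At the member 38.1 kb from *Myod1*, the muscle master regulator (chr7:46337265-46338349), the fold enrichment was 15.7, 14.99 and 14.7 in G7, 10.8, 12.7 and 10.2 in B10 and 6.51, 7.57 and 7.005 in WT. The clones did not overlap, while WT lay below both because members were chosen so. The log2 difference, B10 minus G7, was -0.52 with an SE of 0.09 (limma, adjusted p = 0.0476), and with each library centred within its chromosome the adjusted p was 0.0555.

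**Figure D5:**
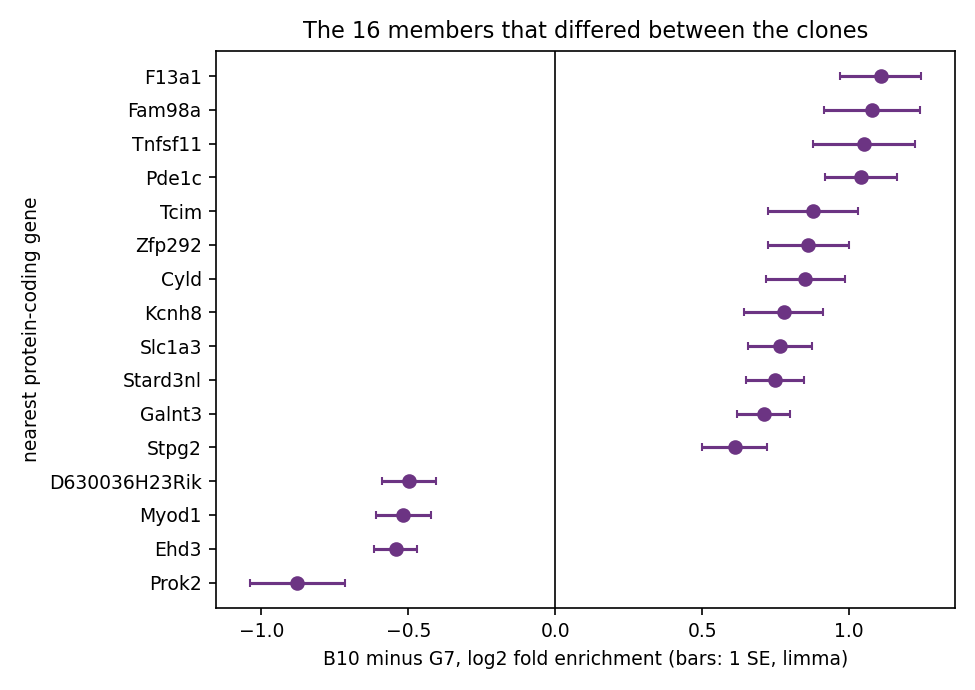
Difference of B10 from G7 in log2 fold enrichment (horizontal axis, bars of 1 SE, limma, 3 libraries per clone) for the 16 members with an adjusted p under 0.05, each named by the nearest protein-coding gene. B10 is higher at 12 and G7 at 4, with values from -0.88 at *Prok2* to 1.11 at *F13a1*.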

How the data were processed

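ATAC-seq peak lists of 9 libraries, 3 each of WT, B10 and G7, were analysed as deposited. The authors aligned reads to mm10 with Rsubread and called peaks with MACS2 for each replicate. The MACS2 version, the use of an input and the use of a blacklist for these lists are not given clearly in the sources used here. The deposited values are, per peak, its start, end and summit position, a fold enrichment (a ratio over background) and the −log10 of its q-value, of which the smallest was 1.30. The lists hold no counts, so depth is unknown and the count model of the study could not be run.

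Percentiles were 100 times the average rank divided by the number of peaks on chromosomes 1 to 19. Regions were annotated with GENCODE M21, as promoter (3 kb either side of a start site), exon, intron or intergenic. The 21 motifs were sought as exact matches on both strands of the 201 bases around the summit of the strongest KO peak, in RefSeq GRCm38.p6. Motifs may overlap each other. B10 and G7 were compared with limma 3.58.1 (R 4.3.3, mean-variance trend, threshold 0.05), and other steps were run in Python 3.11.15. The limma step and the rule were tested on simulated data. Deviations of same-numbered B10 and G7 libraries from their line's mean correlated at 0.542, 0.342 and 0.278 across regions. Pairs with other numbers correlated at -0.406 to -0.343 where replicate 1 was one of them, and at 0.181 and 0.208 between R2 and R3. Every same-numbered pair was above 0.1, but so were the pairs of R2 with R3. Deviations from a line's mean cancel out within the line, so negative values in the other pairs of replicate 1 follow from its positive correlation. They are not separate evidence. The same-numbered correlation was largest for replicate 1, and pairing of R2 and of R3 by number is not established. The numbers were used as a block in an alternative fit, on the ground of the data and not of the labels.

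Members, lists and motifs were chosen with earlier results of these data known. Text names the 10 largest gaps, up to 4 members per gene list, 3 called clone differences per direction, 3 regions on either side of the threshold, 3 windows of 1 Mb and 6 promoters. A region was assigned to the nearest protein-coding start site, or to that of any gene for the imprinted list. Alternatives tried were another percentile, gap, peak number, merging, centring or set of libraries. Peaks outside chromosomes 1 to 19 were left out, apart from a count for chromosomes X and Y. A few items that the rule would name are not reported here.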

Additional observations from a re-analysis of the deposited data

Results flagged for a closer look

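Chromosomes X and Y were outside the choice of members. By the same rule, 33 of their 1097 eligible regions (3.01%) would have been members, the largest gap being 47.5 near *Mbnl3*, and these regions were not compared further.

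Among the named members, 6 differed between the clones by limma, over all eligible regions. The log2 difference, B10 minus G7, was 1.11 at *F13a1*, 1.08 at *Fam98a*, 1.05 at *Tnfsf11*, -0.88 at *Prok2*, -0.54 at *Ehd3* and -0.52 at *Myod1*.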

How the results depend on the processing

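The rule gave 1993 regions with a gap of 5, 385 with a gap of 20, 3048 with replicate 1 of every line left out, and 1134 to 2427 when 1 library was left out, the highest without WT R1. Leaving out libraries loosens the rule, so the higher counts there follow in part from having fewer libraries. The other 5 settings that kept every library, and centring by chromosome (added after the data were seen), gave 905 to 1303. Equal peak numbers per library gave 1046 regions, which covered 907 of the 1077 members. The promoter share was 14.9% with promoters of 1 kb (eligible regions 29.2%), and 22.6% to 24.3% when 1 library was left out. The AP-1 share was 14.2% with a window of 250 bp (eligible regions 22.8%), 6.75% with a gap of 20, and 7.005% to 10.96% when 1 library was left out. In each alternative run for which a share was taken, it stayed below that of eligible regions. The shares were not taken with a gap of 5, a stricter q-value, other merging or percentiles over all peaks of a file. With the replicate block, that is, with pairing by number, 56 members differed between the clones, and the block ended none of the 16 calls. The count was 6 in all 9 libraries over regions with 9 peaks (1.17% of members, 1.67% of all regions), 30 with replicate 1 of both clones left out (2.79% and 2.08%, also added later), and 0 to 29 when 1 library was left out. Depth is unknown, so weak WT peaks and missing ones could not be told apart by counting error. The causes of these changes were not tested.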

Other observations

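At a few genes most of the eligible regions were members. These genes were chosen after their values were seen, and carry no test. Of the 19 genes with at least 3 members, 5 had most of their eligible regions among the members. These were *Gc*, the gene of the vitamin D binding protein, with 3 of 3 and a largest gap of 35.0, *Stpg2* with 4 of 5 and 36.5, *Eci2* with 3 of 4 and 36.8, *Arglu1* with 3 of 5 and 33.8, and *H60c* with 3 of 5 and 22.5. By contrast, the genes with the most members among many eligible regions were *Nav3* (4 of 19), *Gm765* (4 of 13) and *Sorbs2* (4 of 24).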
